A study of Mus musculus with 12 samples.

Results

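Chemokines are small secreted proteins that bind receptors on leukocytes and set where those cells move, and 8 chemokine ligand genes that activated T cells can transcribe are described here across 6 groups of cultured mouse CD4 T cells. They are Xcl1, Ccl1, Ccl3, Ccl4, Ccl5, Ccl20, Ccl22 and Cxcl10, chosen by symbol, and they are 8 of the 52635 genes in the deposited table. Of these 8, 7 passed the filter on low values and were tested among 11922 genes, and Ccl1 did not pass.

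The cells were naive CD4 T cells, stated to be over 95% pure, from mice of the inbred strain C57BL/6. They had been activated for 24 h through CD3 and CD28 in medium with charcoal-stripped serum. The cytokines added were IL-6 (20 ng/mL), 10 ng/mL each of IL-23, IL-21 and IL-1β, and 5 ng/mL each of TGFβ-1 and TNFα. All cultures also held 10 µg/mL each of anti-IL-4 and anti-IFNγ, which neutralise these cytokines, and this mixture favours the interleukin-17-producing Th17 state. Each of 3 genotypes, labelled WT (wild type), RARα TG and RARα KO, gave 2 libraries without retinoic acid (RA) and 2 with 10 nM RA. RA is the active derivative of vitamin A and activates nuclear receptors, RARα among them. The sources used here give neither the alleles behind the KO and TG labels nor the cell types in which they act. Whether the 2 libraries of a group came from separate animals is not stated, though values given below bear on this for TG. The p-values reflect only how far these libraries differ, which may be technical.

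Depth, inferred from the size of 1-read steps among low values, was 16274069 to 25512143 reads. Rara, the gene of RARα, stood at 12.3 to 18.9 FPKM (fragments per kilobase of gene model, scaled by library depth) in WT, 16.8 to 19.5 under the KO label and 63.3 to 126 in TG. Gene-level values thus did not show a loss under the KO label, and these are called the libraries labelled KO. Xist, the transcript of the inactive X chromosome, was at 47.4 to 72.7 FPKM in all 4 libraries labelled KO, at most 0.00332 in WT and TG replicate 1, and 63.1 and 72.1 in TG replicate 2. Sex and the KO label therefore cannot be told apart in comparisons with WT. By Xist, the 2 TG libraries of each dose differed in sex, so they did not come from the same animal. TG against WT thus compares a group of mixed sex with libraries at an Xist of at most 0.00332. The 6 T-cell markers summed to 555 to 970 FPKM. They were lowest in TG without RA, at 627 and 555 against 886 and 781 in TG with RA. In WT they summed to 745 and 675 without RA against 886 and 796 with RA. The bearing of these sums on the ligand levels was not tested. Of the CD8 T-cell markers Cd8a reached 0.714 and Cd8b1 stood at 1.24 to 3.69, and Ncr1, which defines natural killer cells, reached 0.623.

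The ligands fall into groups by receptor. XCL1 draws cross-presenting dendritic cells through XCR1. CCL3, CCL4 and CCL5 are inflammatory chemokines, of which CCL3 and CCL5 bind CCR1. CCL20 is the ligand of CCR6, a receptor of Th17 cells, CCL22 and CCL1 bind CCR4 and CCR8 on Th2 and regulatory T cells, and CXCL10, classically induced by interferons, binds CXCR3 on Th1 cells.

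All 8 genes are protein-coding in the GENCODE M21 annotation. On GRCm38, Xcl1 (ENSMUSG00000026573) lies on the minus strand of chromosome 1 at 164931644 to 164935527, and Ccl20 (ENSMUSG00000026166) on the plus strand of the same chromosome at 83116766 to 83119167. Chromosome 11 carries Ccl5 (ENSMUSG00000035042, 83525778 to 83530518, minus strand), Ccl3 (ENSMUSG00000000982, 83647844 to 83649355, minus strand), Ccl4 (ENSMUSG00000018930, 83662584 to 83664683, plus strand) and Ccl1 (ENSMUSG00000020702, 82176657 to 82305690, minus strand). Ccl3 and Ccl4 are 13.2 kb apart. Ccl22 (ENSMUSG00000031779) lies on the plus strand of chromosome 8 at 94745590 to 94751699, and Cxcl10 (ENSMUSG00000034855) on the minus strand of chromosome 5 at 92346638 to 92348889. Of genes overlapping them, Gm20743 at Xcl1 was listed at 0 throughout and Art3 at Cxcl10 reached 0.0801 FPKM.

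RARα binds DNA, so the bases before the start of transcription are shown for Xcl1, the member called with RA in both WT and TG, and for Cxcl10 and Ccl20, called in contrasts with TG. RefSeq promoter windows on GRCm38.p6 matched 6 of the 8 members. The 250 bases before the start are written 5′ to 3′ on the gene's strand, with matches to 5 motifs, searched on both strands, in capitals.
Xcl1, chr1:164935523-164935772, minus strand: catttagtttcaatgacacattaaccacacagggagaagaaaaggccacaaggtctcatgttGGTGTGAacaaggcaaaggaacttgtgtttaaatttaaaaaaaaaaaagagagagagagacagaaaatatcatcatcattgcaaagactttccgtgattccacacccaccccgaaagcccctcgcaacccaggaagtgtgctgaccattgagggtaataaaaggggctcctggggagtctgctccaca
Cxcl10, chr5:92348890-92349139, minus strand: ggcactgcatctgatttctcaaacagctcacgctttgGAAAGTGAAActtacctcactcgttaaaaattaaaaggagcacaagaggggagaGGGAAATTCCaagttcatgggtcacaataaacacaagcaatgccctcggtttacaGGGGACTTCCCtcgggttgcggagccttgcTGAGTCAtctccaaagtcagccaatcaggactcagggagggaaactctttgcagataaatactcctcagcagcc
Ccl20, chr1:83116516-83116765, plus strand: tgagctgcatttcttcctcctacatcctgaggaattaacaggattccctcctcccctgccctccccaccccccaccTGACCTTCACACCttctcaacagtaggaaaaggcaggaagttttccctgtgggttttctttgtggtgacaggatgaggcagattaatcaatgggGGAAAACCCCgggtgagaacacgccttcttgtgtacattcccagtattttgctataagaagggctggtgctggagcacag
In Xcl1 the capitals mark a T-box motif (GGTGTGA), 188 to 182 bases before the start. In Cxcl10 they mark an interferon-response motif (GAAANN followed by GAAA) at 213 to 204, NF-κB motifs at 159 to 150 and, overlapping each other, at 104 to 94, and an AP-1 motif (TGANTCA) at 74 to 68. In Ccl20 they mark an RAR half-site (AGGTCA, on the other strand) at 174 to 169, adjoining a T-box motif on the other strand at 168 to 162, and an NF-κB motif at 80 to 71. Of 32851 windows of the same length, 14% held the RAR half-site, 7.25% the NF-κB motif, 6.75% the AP-1 motif, 3.33% the T-box motif and 2.98% the interferon-response motif. The RAR half-site was also found in the windows of Ccl3 and Ccl22, and not in those of Xcl1, Cxcl10 or Ccl1. A match describes these letters, not a bound site.

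Per length, the most abundant members were Xcl1 (median over 12 libraries 24.8 FPKM) and Ccl4 (20.8), followed by Ccl3 (7.87), Ccl22 (4.25), Ccl20 (2.42), Ccl5 (1.43), Cxcl10 (0.262) and Ccl1 (0.156). That order was not the same in every group: mean Ccl4 was above mean Xcl1 in all 3 groups without RA (19.1 against 7.53 FPKM in WT, 24.0 against 18.0 under the KO label and 14.0 against 2.24 in TG). Differences are limma log2 differences of FPKM + 1, given ± SE with p-values adjusted over all 11922 genes, and a gene is said to have risen or fallen, or is called, only where the adjusted p was under 0.05. These are bulk values, in which fewer cells of a type and less RNA per cell cannot be told apart.

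**Figure D1:**
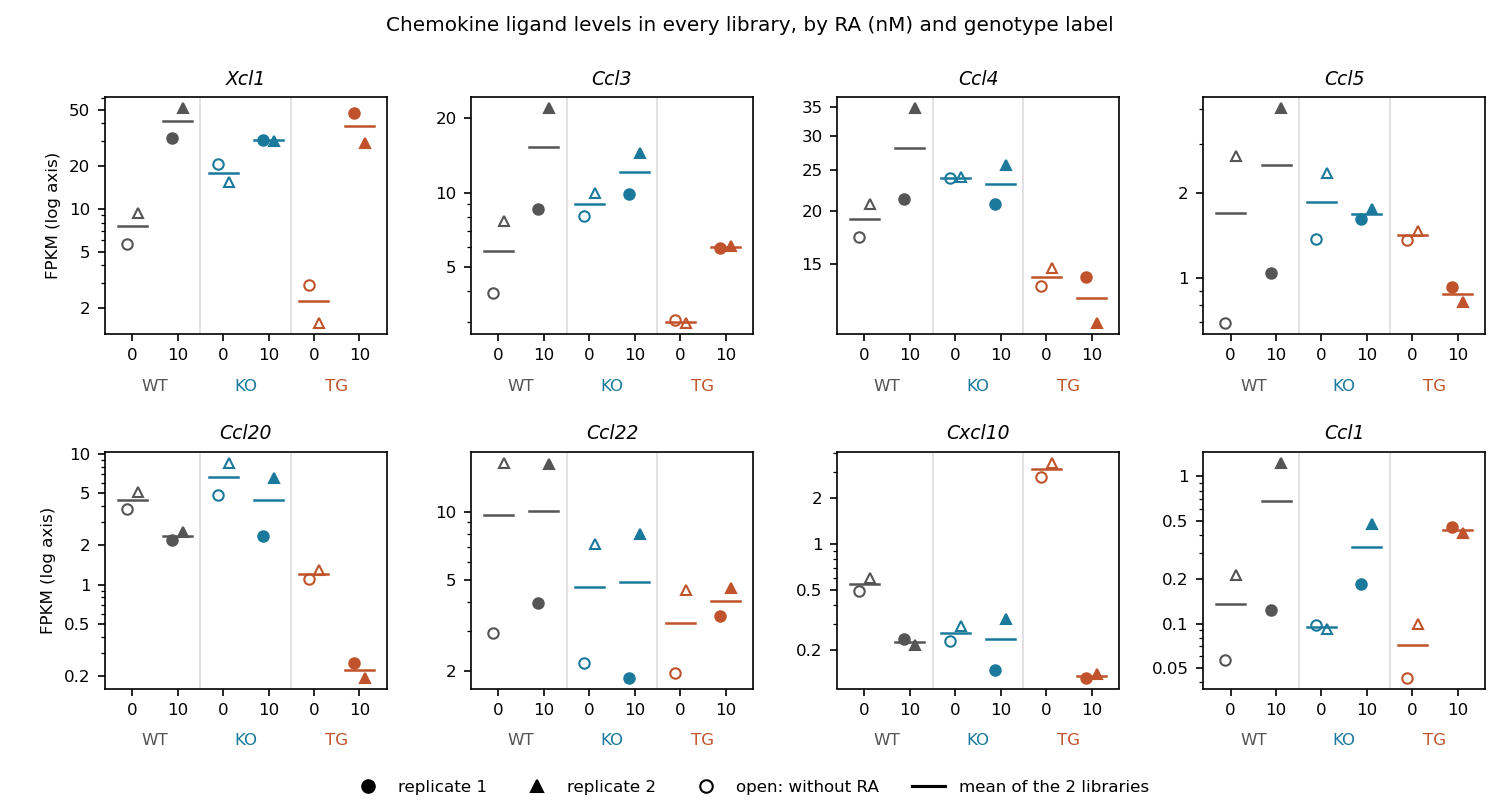
FPKM of the 8 chemokine ligand genes in each of the 12 libraries (points, log axes that do not start at 0) by RA dose and genotype label, with the mean of each group as a line. Xcl1 is lowest and Cxcl10 highest in the TG libraries without RA (1.57 and 2.91, and 2.77 and 3.44 FPKM), and Ccl22 is higher in replicate 2 than in replicate 1 in all 6 groups.

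RA in WT asks which ligands the hormone moves in unmodified cells, and Xcl1 was the member that rose. Of the 7 tested members, 1 rose and 0 fell, where 10.1% of all tested genes were called, 6.67% as higher and 3.47% as lower. The members' median log2 difference was 0.36, against 0.02 over all tested genes. In WT, Xcl1 stood at 5.68 and 9.39 FPKM without RA and at 31.4 and 51.4 with RA, so that the groups did not overlap. The difference was 2.31 ± 0.33 (limma adjusted p = 0.0046), a 5.5-fold difference of means. It was called in 9 of 10 alternatives and not with only WT in the fit (adjusted p = 0.078).

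In TG, whose libraries held the most Rara, Xcl1 rose from 2.91 and 1.57 FPKM to 47.2 and 29.1, a difference of 3.59 ± 0.33 (limma adjusted p = 6.9e-05) and of 17.0-fold in means. This was called in 10 of 10 alternatives. The libraries labelled KO stood at 20.6 and 15.4 FPKM without RA against 30.8 and 30.2 with RA, a difference of 0.75 ± 0.33 (adjusted p = 0.48) that did not pass. Among the 7 members, RA gave 1 rise and 1 fall in TG, where 39.1% of tested genes were called, 19.7% as higher and 19.4% as lower. In the libraries labelled KO 0 were called in limma, 0 at an unadjusted p under 0.05 and 0 with voom on recovered reads, where 0.143% of tested genes were called.

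The Xcl1 levels with RA lay close together, and those without RA spread apart. By mean FPKM the order was WT with RA (41.4), TG with RA (38.2) and KO with RA (30.5), which overlapped their neighbours, then KO without RA (18.0), WT without RA (7.53) and TG without RA (2.24), which did not. Without RA, the KO label stood above WT by 1.17 ± 0.33 (limma adjusted p = 0.14) and TG below it by 1.39 on the log2 scale (-1.39 ± 0.33, adjusted p = 0.057). Neither passed, although the TG difference did with a pseudocount of 0.1 (-1.72, adjusted p = 0.043). The RA effect on Xcl1 differed from that in WT by -1.56 ± 0.47 under the KO label (limma adjusted p = 0.63) and by 1.28 ± 0.47 in TG (adjusted p = 0.16), and neither was called.

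Xcl1 is also made by natural killer cells, and the 8 natural killer markers summed to 3.62 and 16.2 FPKM in RA-free WT against 8.94 and 27.9 with RA. Under the KO label they summed to 10.5 and 9.14 without RA against 14.5 in each library with RA, and in TG to 3.95 and 5.35 without and 36.7 and 35.4 with RA. Most of the last sum was Nkg7, a granule membrane gene of cytotoxic lymphocytes, at 33.7 and 31.8 FPKM in TG with RA. Of the 4 tested markers, 1 rose and 1 fell with RA in TG, where 39.1% of all tested genes were called. Nkg7 rose there (4.07 ± 0.37, limma adjusted p = 5.8e-05). It also rose with RA in WT (1.48 ± 0.37, limma adjusted p = 0.039), called in 5 of 10 alternatives, where 10.1% of tested genes were called. Klre1 stood at 1.49 and 1.88 FPKM in TG without RA against 0.187 and 0.304 with RA (-1.11 ± 0.16, adjusted p = 0.00087), and it passed the filter only through TG without RA, which favoured a fall from that group.

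The granule genes Gzma and Prf1, the other tested natural killer markers, ranged from 0.151 to 11.5 and from 1.3 to 4.8 FPKM. Gzma was highest in the replicate 2 libraries of WT, at 8.36 without RA and 11.5 with RA, and at most 0.939 in TG. Ncr1 was at most 0.623, Eomes 0.387, Klra8 0.288 and Klrb1c 0.0763 FPKM in any library. The part of natural killer cells in the Xcl1 values was not tested. The receptor gene Xcr1 was at most 0.132 FPKM and was not tested.

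Tbx21, which encodes the T-box factor T-bet, stood at 2.67 and 3.90 FPKM in RA-free WT against 5.33 and 8.69 with RA (0.88 ± 0.29, limma adjusted p = 0.093). In TG it rose from 1.47 and 1.5 to 17.0 and 14.7 FPKM (2.76 ± 0.29, adjusted p = 0.00014). Of 6 tested regulators of T-helper subsets, 3 rose and 2 fell with RA in TG, where 39.1% of all tested genes were called. Foxp3, which defines regulatory T cells, rose by 4.25 ± 0.25, and Gata3 rose from a mean of 0.407 to 1.15 FPKM. The 2 that fell were Runx3, from a mean of 24.3 to 10.0 FPKM, and Batf, from 138 to 111.

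**Figure D2:**
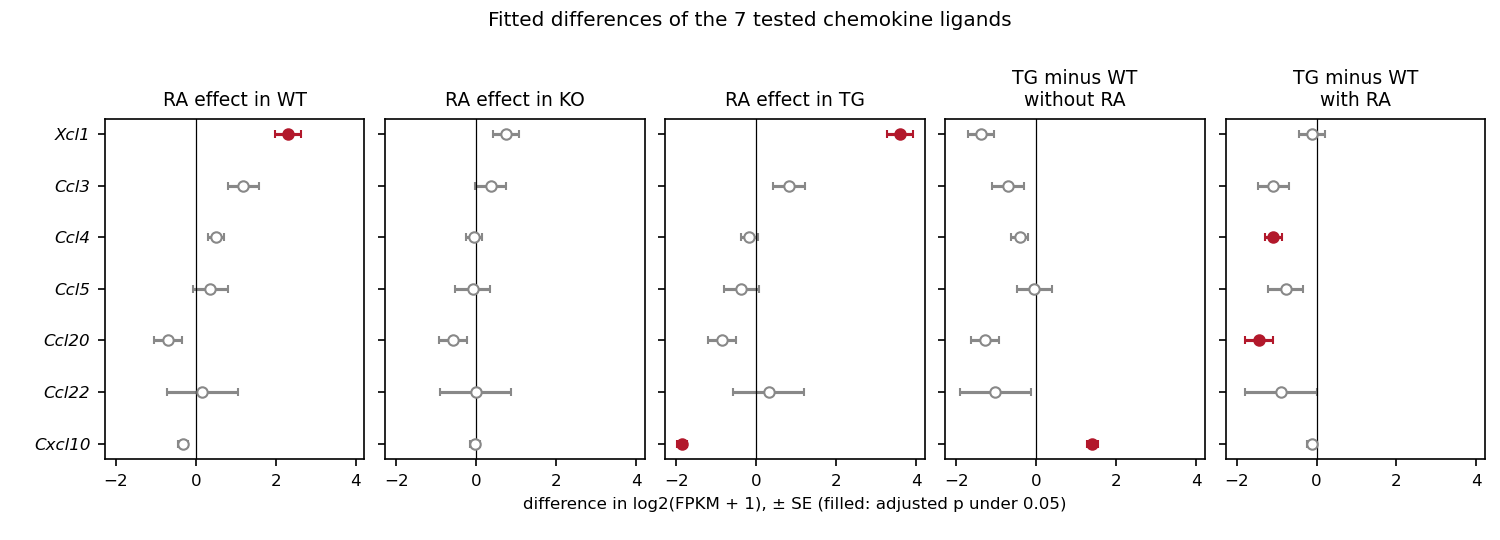
Fitted differences in log2(FPKM + 1) ± SE for the 7 tested members in 5 comparisons, with filled points where the limma adjusted p was under 0.05. The filled points are Xcl1 for RA in WT (2.31) and in TG (3.59), Cxcl10 for RA in TG (-1.85) and TG against WT without RA (1.40), and Ccl4 (-1.08) and Ccl20 (-1.45) for TG against WT with RA.

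Among Ccl3, Ccl4 and Ccl5, Ccl4 was lower in TG than in WT with RA, and no other comparison of the 3 genes was called. In WT, Ccl4, which encodes MIP-1β, stood at 17.4 and 20.8 FPKM without RA against 21.3 and 34.9 with RA. In TG it stood at 13.3 and 14.7 without RA against 14.0 and 10.9 with RA, so that all 4 TG libraries lay below all 4 WT libraries. The libraries labelled KO held 23.9 and 24.0 FPKM without RA against 20.7 and 25.6 with RA, within the span of WT.

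Ccl4 differed between TG and WT with RA by -1.08 ± 0.21 (limma adjusted p = 0.014), 2.26-fold in means. The call ended with only the libraries compared in the fit (adjusted p = 0.13), without WT with RA replicate 2 (-0.74, adjusted p = 0.052) and without TG with RA replicate 2 (-0.92, adjusted p = 0.099). Without RA the difference was -0.42 ± 0.21 (adjusted p = 0.34). RA in WT gave 0.50 ± 0.21 (adjusted p = 0.19), which passed without WT with RA replicate 1 (0.84, adjusted p = 0.042), and the RA effect in TG minus that in WT was -0.67 ± 0.30 (adjusted p = 0.25), past the threshold without the same library (-1.01, adjusted p = 0.041). Without WT with RA replicate 2 these were 0.15 (adjusted p = 0.63) and -0.32 (adjusted p = 0.52).

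Ccl3, which encodes MIP-1α, had its lowest group in TG without RA, and its WT libraries lay far apart. Its levels were 3.93 and 7.66 FPKM in RA-free WT, 8.62 and 22.0 in WT with RA, 8.07 and 10.0 under the KO label without RA against 9.84 and 14.4 with RA. In TG they were 3.04 and 2.97 without RA against 5.98 and 6.11 with RA, so the TG groups did not overlap. RA gave 1.19 ± 0.39 in WT (limma adjusted p = 0.097), 0.37 ± 0.39 under the KO label (adjusted p = 0.79) and 0.82 ± 0.39 in TG (adjusted p = 0.14). TG with RA differed from WT with RA by -1.08 ± 0.39 (adjusted p = 0.12).

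None of these Ccl3 values passed, and several did under an alternative. RA in WT passed without WT with RA replicate 1 (1.82, limma adjusted p = 0.025), as did TG against WT with RA (-1.71, adjusted p = 0.02). Without WT with RA replicate 2 the same differences were 0.56 (adjusted p = 0.32) and -0.45 (adjusted p = 0.51). With only the 4 TG libraries in the fit, RA in TG passed (adjusted p = 0.0032). Over 12 libraries Ccl3 and Ccl4, which are neighbours on the chromosome, had a Pearson r of 0.83, and Xcl1 and Ccl3 one of 0.78. The 12 points share genotypes, doses and replicate numbers, so these r values are descriptions.

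Ccl5, which encodes RANTES, was low, at 15 to 63 reads per library. It stood at 0.692 and 2.71 FPKM in RA-free WT, 1.04 and 4.03 in WT with RA, 1.38 and 2.36 under the KO label without RA against 1.62 and 1.76 with RA. TG held 1.37 and 1.47 FPKM without RA against 0.930 and 0.820 with RA, the lowest group mean (0.875). Against WT with RA that was -0.77 ± 0.44 (limma adjusted p = 0.31), and no Ccl5 difference was called at this depth and spread. It was -1.42 (adjusted p = 0.072) without WT with RA replicate 1 and -0.12 (adjusted p = 0.91) without replicate 2.

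Ccr1, which encodes a receptor of CCL3 and CCL5, was low in these cells. It showed 1.13 and 1.04 FPKM in TG without RA and at most 0.339 in any other library, and fell with RA in TG (-0.92 ± 0.14, limma adjusted p = 0.0012). It passed the filter through TG without RA, so it had to stand high there, and the tests on that group describe more than they support. Ccr3, another receptor of CCL5, stood at 1.15 and 0.682 FPKM in that group and was not tested.

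Ccl20, the CCR6 ligand, was lowest in TG with RA, and so was Ccr6. Ccl20 stood at 3.77 and 5.09 FPKM in RA-free WT against 2.20 and 2.51 with RA. Under the KO label it stood at 4.84 and 8.55 without RA against 2.34 and 6.52 with RA. TG held 1.11 and 1.30 FPKM without RA against 0.251 and 0.194 with RA, the latter from 6 and 7 reads, and all 4 TG libraries lay below the other 8.

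TG with RA fell short of WT with RA by -1.45 ± 0.35 in Ccl20 (limma adjusted p = 0.032), a 10.6-fold difference of means. Of the 7 tested members, 0 were higher and 2 lower in this comparison, Ccl4 and Ccl20, where 11.5% of tested genes were called, 6.84% as higher and 4.64% as lower. The members' median was -0.89, against -0.02 over all tested genes. The Ccl20 call was close to the threshold. It ended with no filter on low values (adjusted p = 0.078), with voom on recovered reads (-3.34, adjusted p = 0.058) and without any 1 of the 4 libraries compared (-1.52 to -1.39, adjusted p = 0.084 to 0.14).

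Without RA the same contrast gave -1.29 ± 0.35 for Ccl20 (limma adjusted p = 0.083). RA gave -0.69 ± 0.35 in WT (adjusted p = 0.27), -0.57 ± 0.35 under the KO label (adjusted p = 0.61) and -0.85 ± 0.35 in TG (adjusted p = 0.089). All 3 RA differences were negative and none passed. In TG the fold of means was 5.39, and the difference passed with a pseudocount of 0.1 (-2.01, adjusted p = 0.0066), which compresses low values less, and with only the TG libraries in the fit (adjusted p = 0.011).

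Ccr6 stood at 17.0 and 26.2 FPKM in RA-free WT against 9.76 and 17.3 with RA, and at 22.3 and 28.7 and then 18.0 and 20.7 under the KO label. In TG it fell from 14.1 and 21.9 to 2.76 and 4.46 FPKM (-2.04 ± 0.32, limma adjusted p = 0.0013, called in 10 of 10 alternatives). TG with RA lay below WT with RA by -1.63 ± 0.32 (adjusted p = 0.014). That call ended with only the libraries compared in the fit (adjusted p = 0.09), without WT with RA replicate 2 (-1.25, adjusted p = 0.086) and without TG with RA replicate 1 (-1.36, adjusted p = 0.097).

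Ccl22, which dendritic cells and B cells also make, was higher in replicate 2 than in replicate 1 in every group, and no group comparison was called. Its levels in replicates 1 and 2 were 2.94 and 16.4 FPKM in RA-free WT, 3.98 and 16.2 in WT with RA, 2.16 and 7.17 under the KO label without RA against 1.86 and 7.97 with RA. In TG they were 1.96 and 4.51 without RA against 3.48 and 4.60 with RA. Replicate 2 stood above replicate 1 by 1.32 to 5.58-fold, so the ranges of neighbouring groups overlapped. Among libraries of the same replicate number and dose, WT was above the KO label and TG in 4 of 4 cases. These cases are not independent, and the labels state no pairing across genotypes.

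The differences of Ccl22 between groups were accordingly imprecise, such as 0.16 ± 0.89 for RA in WT (limma adjusted p = 0.94) and -1.03 ± 0.89 for TG against WT without RA (adjusted p = 0.60). Cd74, the class II invariant chain of antigen-presenting cells, was at 12.4 to 16.0 FPKM in the replicate 1 libraries and at 21.8 to 84.7 in the replicate 2 libraries. Over the 12 libraries Ccl22 and Cd74 had a Pearson r of 0.96. The r with Cd74 was 0.85 for Ccl5, 0.53 for Ccl3, 0.49 for Ccl4, 0.36 for Ccl20, 0.10 for Xcl1 and -0.02 for Cxcl10.

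The 9 dendritic-cell and class II markers summed to 23.7 and 157 FPKM in RA-free WT against 26.0 and 165 with RA. They summed to 26.5 and 73.2, then 25.5 and 78.3, under the KO label and to 27.5 and 43.8, then 32.1 and 42.9, in TG. Clec9a and Siglech, which define dendritic-cell subsets, were listed at 0 in both libraries of 5 and 4 of the 6 groups. The 8 B-cell markers summed to 29.0 and 98.0 in WT without RA against 55.6 and 125 with RA, to 30.3 and 51.4, then 36.5 and 64.7, under the KO label, and to 30.9 and 33.5, then 109 and 107, in TG. The 6 monocyte and macrophage markers summed to 3.89 and 15.8 FPKM in WT without RA against 3.97 and 19.8 with RA. They summed to 4.79 and 17.8, then 4.64 and 16.9, under the KO label, and to 3.66 and 6.05, then 4.0 and 5.98, in TG. The part of any of these cells in the Ccl22 and Ccl5 levels was not tested.

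**Figure D3:**
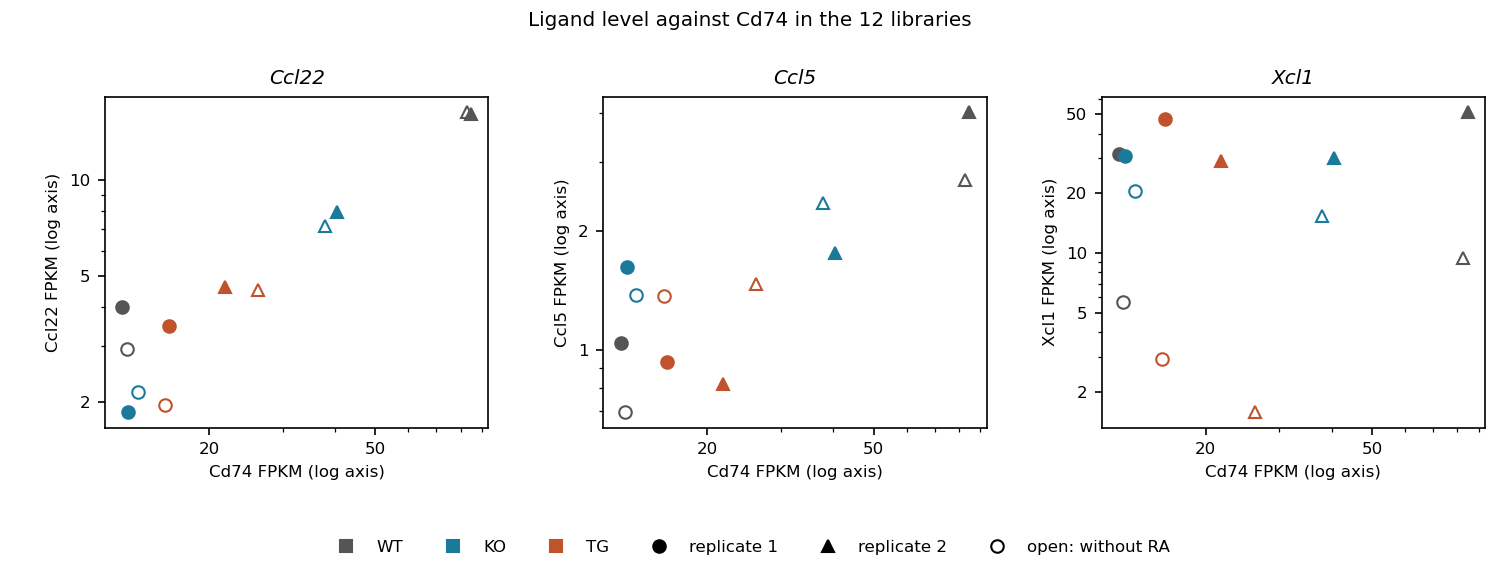
FPKM of Ccl22, Ccl5 and Xcl1 against FPKM of Cd74 in the 12 libraries, on log axes, with genotype labels by colour, replicate numbers by shape and open points without RA. Ccl22 follows Cd74 (Pearson r 0.96 on log2 of FPKM + 1), Ccl5 does so less closely (0.85), and Xcl1 does not (0.10).

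Ccl1, the CCR8 ligand, was at the edge of detection, with an FPKM of at least 1 in 1 of 12 libraries, and was not tested. Its annotated gene holds 2369 bases of exon, and its RefSeq promoter window lies inside that gene, at 82179813 to 82180062. A longer gene model lowers FPKM for the same reads, and the effect on its rank and on the filter was not tested. It stood at 0.0561 and 0.214 FPKM in RA-free WT against 0.124 and 1.24 with RA, from 3, 9, 5 and 48 reads. Under the KO label it was at 0.0976 and 0.0911 without RA against 0.187 and 0.474 with RA. In TG it was at 0.0428 and 0.0992 FPKM without RA against 0.452 and 0.415 with RA, from 2, 6, 18 and 25 reads. Under the KO label and in TG both libraries with RA lay above both without, and in WT the groups overlapped.

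The receptors of both ligands were well expressed, and with RA Ccr8 rose and Ccr4 fell in WT and in TG. Ccr8 rose in WT from 61.1 and 65.1 to 108 and 114 FPKM (0.81 ± 0.10, limma adjusted p = 0.0027) and in TG from 48.1 and 54.2 to 112 and 114 (1.13 ± 0.10, adjusted p = 6.2e-05), each called in 10 of 10 alternatives. Under the KO label it stood at 94.9 and 92.3 without RA against 102 and 129 with RA (0.29 ± 0.10, adjusted p = 0.37). Without RA the KO label lay above WT by 0.56 ± 0.10 (adjusted p = 0.038), a call that ended without any 1 of the 4 libraries compared (0.52 to 0.61, adjusted p = 0.13 to 0.21).

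Ccr4, the receptor of CCL22, fell in WT from 61.0 and 60.9 to 37.2 and 42.7 FPKM (-0.60 ± 0.09, limma adjusted p = 0.005). In TG it fell from 48.6 and 57.2 to 23.6 and 25.6 (-1.07 ± 0.09, adjusted p = 3.5e-05), and TG with RA lay below WT with RA (-0.68 ± 0.09, adjusted p = 0.0019). The 2 TG differences were called in 10 of 10 alternatives each and the WT one in 9 of 10, not with only WT in the fit (adjusted p = 0.069). Under the KO label Ccr4 stood at 54.8 and 57.9 FPKM without RA against 46.6 and 45.2 with RA (-0.29 ± 0.09, adjusted p = 0.28).

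**Figure D4:**
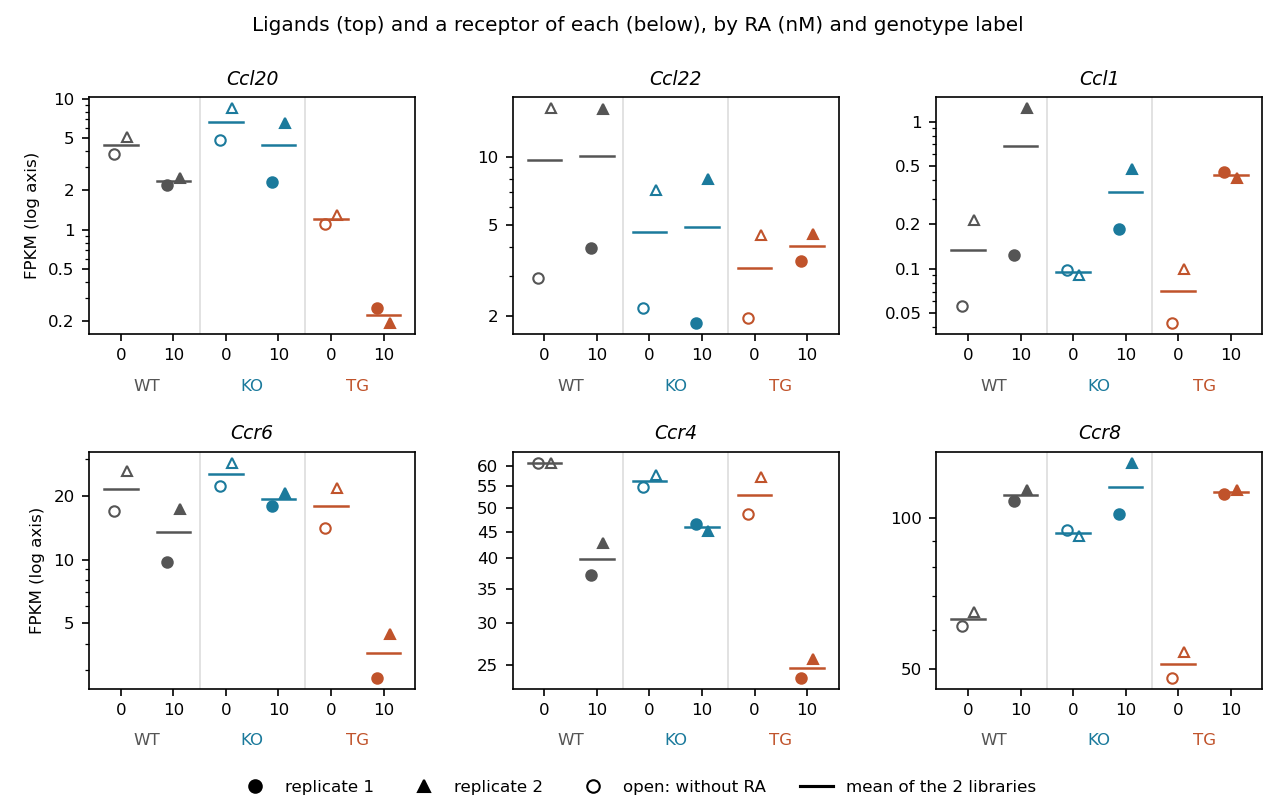
FPKM of 3 ligands (top) and of a receptor of each (below) in every library, on log axes that do not start at 0, with group means as lines. Ccr6 and Ccr4 are lowest and Ccl20 is lowest in TG with RA, and Ccr8 is lowest in TG without RA (48.1 and 54.2 FPKM).

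Cxcl10, the CXCR3 ligand, was the member highest in TG without RA, by a wide gap. It stood at 2.77 and 3.44 FPKM there, from 123 and 198 reads, and at 0.132 and 0.140 in TG with RA, from 5 and 8 reads. WT held 0.492 and 0.602 FPKM without RA against 0.236 and 0.218 with RA. The libraries labelled KO held 0.231 and 0.288 without RA against 0.148 and 0.324 with RA.

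Cxcl10 fell with RA in TG (-1.85 ± 0.13, limma adjusted p = 1.5e-05), 22.8-fold by means and called in 10 of 10 alternatives. It was the member that was higher in TG than in WT without RA (1.40 ± 0.13, adjusted p = 0.0012, 5.68-fold), a call that ended with only the 4 libraries compared in the fit (adjusted p = 0.057). In that comparison 1 of 7 tested members was higher and 0 lower, where 4.31% of tested genes were called, 2.25% as higher and 2.06% as lower, and the members' median was -0.71 against 0.01 over all tested genes. Cxcl10 passed the filter only through its 2 libraries of TG without RA, so among tested genes it had to stand high in that group.

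The RA difference of Cxcl10 in TG minus that in WT was -1.52 ± 0.19 (limma adjusted p = 0.0022), and since its passing the filter rested on TG without RA, this describes more than it supports. It was the 1 member called in this comparison, where 7.48% of tested genes were, 2.73% as lower and 4.75% as higher. In WT the RA difference was -0.33 ± 0.13 (limma adjusted p = 0.15), which did not pass, with means of 0.547 FPKM without and 0.227 with RA. The KO label and WT differed by -0.30 ± 0.13 without RA (adjusted p = 0.33).

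Comparisons with the KO label called no member. Of 7 tested, 0 were called by limma without RA (1.74% of tested genes were), with RA (0.881%) or for the RA effect in KO minus that in WT (0.00839%). At an unadjusted p under 0.05 there were 1, 0 and 1, Xcl1 each time, and with voom on recovered reads 0, 0 and 0. The members' medians in these comparisons were 0.32, -0.23 and -0.43, against 0.01, 0.00 and -0.01 over all tested genes.

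CXCR3 is the receptor of CXCL10. Cxcr3 stood at 2.23 and 3.75 FPKM in RA-free WT, 1.74 in each library of WT with RA, 3.47 and 4.93 and then 3.68 and 4.77 under the KO label, 2.08 and 2.10 in TG without RA against 1.07 and 1.25 with RA. The KO label lay above WT with RA by 0.93 ± 0.20 (limma adjusted p = 0.089), and RA gave -0.52 ± 0.20 in both WT (adjusted p = 0.14) and TG (adjusted p = 0.065). None passed. The TG difference passed with a pseudocount of 0.1 (-0.80, adjusted p = 0.033) with only the TG libraries in the fit (adjusted p = 0.023) and with the replicate block (adjusted p = 0.021), which also called the KO label above WT (adjusted p = 0.026). The WT difference ranged from -0.24 without WT without RA replicate 2 to -0.80 without replicate 1.

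Other interferon-induced genes did not share one direction in TG. Of 12 listed, 6 were tested, and 3 were higher and 0 lower in TG than in WT without RA, where 4.31% of all tested genes were called. They were Gbp4, a guanylate-binding protein gene (1.33 ± 0.22, limma adjusted p = 0.015), Isg15, a ubiquitin-like modifier gene (1.07 ± 0.21, adjusted p = 0.028), and Ifit1 (0.74 ± 0.11, adjusted p = 0.011). Ifit1 passed the filter only through its 4 TG libraries (1.11 to 2.89 FPKM), so among tested genes it had to stand high there. Each of the 3 calls ended without some single libraries, Gbp4 and Isg15 without any 1 of the 4 and Ifit1 without either WT library or TG replicate 1. Their ranges then were 1.26 to 1.41 for Gbp4, 0.96 to 1.18 for Isg15 and 0.62 to 0.78 for Ifit1. Over all alternatives Gbp4 and Ifit1 were called in 6 of 10 each and Isg15 in 3 of 10. The Isg15 and Ifit1 calls thus also ended in fits that left out no single library. With RA in TG 2 fell, Gbp2 (-3.23 ± 0.33) and Gbp4 (-1.46 ± 0.22), and 2 rose, Irf1 (0.84 ± 0.13) and Ifit1 (0.73 ± 0.11), where 39.1% of all tested genes were called. The related CXCR3 ligand genes Cxcl9 and Cxcl11 were at most 0.131 and 0.0142 FPKM and were not tested.

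Of the 30 other chemokine ligand genes listed, 5 passed the filter (Ccl6, Ccl9, Ccl17, Ccl25 and Cxcl3). Cxcl3, a neutrophil-attracting chemokine gene, stood at 1.51 and 1.17 FPKM in TG with RA, where it passed the filter, and at 0 to 0.263 elsewhere. It rose with RA in TG (1.16 ± 0.16, limma adjusted p = 0.00058) and was higher than in WT with RA (0.97 ± 0.16, adjusted p = 0.0057). It was tested only because it stood high in that group, so these tests describe more than they support. Ccl17, the other CCR4 ligand, was at 0 to 0.347 FPKM in the replicate 1 libraries and 0.229 to 3.94 in those of replicate 2, with replicate 2 above replicate 1 in 6 of 6 groups, as for Ccl22. The 4 tested genes other than Cxcl3 were not called in any of the 9 comparisons.

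Cytokine genes that T cells switch on together with chemokines were also followed. Of 6 listed, 4 were tested, and RA called 0 in WT, 0 under the KO label and 1, Il2, in TG (0.26 ± 0.07, limma adjusted p = 0.019). Over all tested genes the shares called were 10.1%, 0.143% and 39.1%. The Il2 call ended without any 1 of the 4 TG libraries (0.23 to 0.28). Il2, the T-cell growth factor gene, stood at 45.0 and 48.4 FPKM in WT and 19.4 and 20.2 in TG without RA (-1.20 ± 0.07, adjusted p = 0.00011), and at 44.3 and 46.3 in WT and 24.4 and 23.5 in TG with RA (-0.89 ± 0.07, adjusted p = 0.00015). Both TG against WT differences were called in 10 of 10 alternatives. Tnf was at a mean of 60.0 to 85.6 FPKM and Lta at 305 to 442 over the 6 groups, with no call.

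The genes whose pattern was most like each tested member's were taken as the 3 highest Pearson r of log2(FPKM + 1) over the 12 libraries, among 9113 candidates. For Ccl22 they were H2-Aa, H2-Eb1 (r = 0.97 each) and H2-Ab1 (0.96), and for Ccl5 the same class II genes (0.86, 0.85 and 0.85 for H2-Eb1, H2-Aa and H2-Ab1). For Xcl1 they were Tap2, Dpysl2 and Plk3 (0.98 each), for Cxcl10 Mapk7, Ahcyl1 (0.98 each) and Rac3 (0.97), and for Ccl20 Akap12, Crmp1 (0.95 each) and Cd81 (0.93). Ccl3 was closest to Cdc42bpg (0.97), H2-Ob (0.95) and Ak1 (0.94), and Ccl4 to Zc3h10, Nrf1 (0.94 each) and Ubr7 (0.89). By Spearman's rho 0 of 3 were the same for Xcl1, Ccl5 and Cxcl10, and 1 of 3 for Ccl3 and Ccl4. Among pairs of members, the lowest r was -0.89, between Xcl1 and Cxcl10, of which the former rose and the latter fell with RA in TG.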

How the data were processed

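RNA of 12 cultures was sequenced from stranded libraries as single reads of 100 bp. The authors deposited FPKM per gene for each library, in 1 table, per the file headers. Builds GRCm38.p5 and mm10 and the tools STAR, Trimmomatic 0.32, DESeq2 and HTSeq 0.6.1 are named in the submitters' processing notes. The sources used here do not say what each was used for, which annotation was counted or whether counting used strand.

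Positions come from GENCODE M21 on GRCm38, which holds 52488 of the 52635 identifiers. Where reads are counted whole, FPKM moves in steps of 1 read, which gave each library's depth. Of values up to 20 reads, 95.3 to 96.0% came within 0.02 of whole reads, and recovered reads summed to 1.063 to 1.066 times the depth. Reads are not independent molecules.

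The 11922 genes that reached an FPKM of 1 in 2 or more libraries were tested on log2(FPKM + 1) with limma 3.58.1 under R 4.3.3, through its functions lmFit, contrasts.fit and trended eBayes. The scale understates the change of low genes. The model held 6 group means, with 6 residual and 2.51 prior degrees of freedom, for 9 comparisons. These were RA against no RA in WT, KO and TG, both other genotypes against WT with and without RA, and the RA effect in KO or TG minus that in WT. Comparisons share libraries. Two-sided p-values were adjusted within a comparison by Benjamini-Hochberg. Alternatives were a pseudocount of 0.1, no filter, upper-quartile scaling (which moved the median of all genes by at most 0.02), only the groups compared, the replicate number as a block, voom on recovered reads (11910 genes) and leaving out each library. Tables were handled in Python 3.11.15 with pandas 2.3.3, and the code was tested on simulated data.

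The 8 members and all gene lists were chosen with earlier results of these data known. Of the lists, the members called and those needed beside a ligand are named, and 2 genes of the lists are left out of them and not reported here. Likeness was computed for tested genes with a mean FPKM of at least 2, leaving out predicted genes and receptor or immunoglobulin segments.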

Additional observations from a re-analysis of the deposited data

Results flagged for a closer look

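The effect of RA differed between TG and WT, by a test of the difference itself in limma, for 1 of the 7 tested ligands. It also differed for 1 of 5 other ligand genes tested, Cxcl3, and for 1 of 5 receptor genes tested, Ccr1. Over all tested genes 7.48% were called in this comparison, 4.75% as higher and 2.73% as lower. For Cxcl10 the RA effect in TG minus that in WT was -1.52 ± 0.19 (limma adjusted p = 0.0022), and in both genotypes the libraries with RA lay below those without. It was called in 14 of 14 alternatives. For Cxcl3 it was 1.08 ± 0.22 (adjusted p = 0.023), called in 6 of 14 alternatives, and for Ccr1 -0.82 ± 0.20 (adjusted p = 0.046), called in 3 of 14. Of the 8 libraries compared, the Cxcl3 call held only without WT with RA replicate 2 or TG with RA replicate 2 (0.97 to 1.19 over all 8), and the Ccr1 call ended without any 1 of them (-0.93 to -0.70). All 3 genes passed the filter on low values through 1 TG group, in which they therefore had to stand high.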

How the results depend on the processing

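Counts of called members moved with the fit. For RA in WT the count of 1 became 0 with only the groups compared, 2 with a replicate block and 1 to 3 when a library was left out. For RA in TG the count of 2 became 4 with only the groups compared and 3 with a pseudocount of 0.1 or the replicate block. For TG against WT without RA the count of 1 became 2 with a pseudocount of 0.1, 0 with only the groups compared and 2 with the replicate block. For TG against WT with RA the count of 2 became 1 with no filter, 1 with only the groups compared, 1 with voom on recovered reads, 3 with the replicate block and 0 to 2 when a library was left out (0 without WT or TG replicate 2). For the RA effect in TG minus WT it was 1 to 2 when a library was left out (2 without WT with RA replicate 1). The cause was not tested.

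Replicate numbers were not treated as pairs in the main fit, since the labels give no shared source. Deviations of same-numbered libraries correlated at 0 to 0.33 over 15 pairs of groups. That range pools pairs within and across genotypes, so it cannot decide whether the 2 doses of a genotype were paired. In TG, Xist was at most 0.00332 FPKM in replicate 1 and 63.1 and 72.1 in replicate 2, so same-numbered TG libraries matched in sex. Whether they shared animals was not tested. With the replicate block, Ccl3 passed for RA in WT (adjusted p = 0.032) and TG against WT with RA (0.043), and Ccl20 for RA in TG (0.036) and TG against WT without RA (0.031), all by limma. The block ended no call among the members.

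Leaving out a library reversed 3 uncalled differences: Ccl20 for RA under the KO label (-1.16 to 0.01), and Ccl22 for RA in WT (-0.91 to 1.24) and TG against WT without RA (-2.11 to 0.04). A lone library is then assumed to vary like the other groups. Over 67 printed differences and 702 alternatives, 587 kept direction and side of the threshold, 93 lost a call, 18 gained one and 4 reversed. Ccl1 and Ccl5 rest on 2 to 48 and 15 to 63 reads per library, which limits the differences detectable there.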
